A study of Mus musculus with 17 samples.

Results

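The genes described here encode the proteins of the cytosolic ribosome, and their transcripts were counted in diaphragm, the muscle that drives respiration. Members were chosen by symbol, as Rpl or Rps followed by a number with at most a final a, x or l, together with Rplp0, Rplp1, Rplp2 and Rpsa. This rule took 82 of the 47643 rows of the expression table, 50 for the large and 32 for the small subunit. A filter on low values, at least 1 TPM in at least 3 mice, left 78 members among the 13305 genes tested. TPM is a level per base of transcript, scaled so that each library sums to 1000000.

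The 17 libraries came from male C57BL/6J mice, 4 months old, 1 mouse per library. Tumor-free mice received mock injections (Control, n = 5) or recombinant Fibcd1, a secreted fibrinogen-domain protein (Control + rFibcd1, n = 5). The remaining animals bore tumors of an established mouse line, Lewis lung carcinoma, implanted under the skin of both flanks, and received mock (LLC, n = 3) or rFibcd1 (LLC + rFibcd1, n = 4). Mock was PBS with albumin, and all injections went into the peritoneal cavity, which borders the diaphragm. The comparisons address what tumor growth changes in this muscle and whether rFibcd1 alters it.

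Ribosomes translate mRNA into protein, with a small subunit that reads the codons and a large subunit that joins amino acids and releases the chain through an exit tunnel. Most ribosomal proteins are made in equal numbers, and many of their mRNAs begin with a run of pyrimidines, the TOP motif, through which mTOR signaling controls their translation. A few proteins have a paralog used in particular tissues. Rpl3l takes the place of Rpl3, a protein of the peptidyl transferase center, in ribosomes of skeletal muscle and heart.

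Because Rpl3 and Rpl3l turned out to move in opposite directions, the first 90 coding bases of both are shown, from GENCODE vM21 on GRCm38, with the 21 bases that differ in capitals. Rpl3 lies at chr15:80077791-80091868 on the minus strand and Rpl3l at chr17:24727820-24736143 on the plus strand.
Rpl3: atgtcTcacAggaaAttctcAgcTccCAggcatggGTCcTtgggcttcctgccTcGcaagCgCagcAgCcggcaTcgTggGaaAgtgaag
Rpl3l: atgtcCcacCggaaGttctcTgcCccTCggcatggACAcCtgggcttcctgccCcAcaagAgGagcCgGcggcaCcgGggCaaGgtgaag
Over the whole aligned coding sequence the pair was 73.2% identical, so most reads of 1 gene can be told from the other. Other pairs of equal or nearly equal length were Rpl6 and Rpl6l, an annotated pseudogene, at 96.8%, Rpl39 and Rpl39l at 85.0%, and Rpl10 and Rpl10l at 84.7%. Rps4x and Rps27 also have a paralog row, Rps4l and Rps27l, of another length.

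Start sites are shown for 4 members, 2 with a TOP run at the annotated start and 2 paralogs with none at that position, as 20 bases before and 10 from the annotated start (RefSeq, GRCm38.p6). Capitals mark a C at the start followed by at least 4 pyrimidines. For Rps27l and Rpl3l such a run did begin within 10 bases of the start shown. The windows are chr3:90213639-90213668 for Rps27 and chr4:86857358-86857387 for Rps6, both on the minus strand, and chr9:66946066-66946095 for Rps27l and chr17:24727806-24727835 for Rpl3l, both on the plus strand.
Rps27: acaggatttccgctttcgctCCTTTCCggc
Rps6: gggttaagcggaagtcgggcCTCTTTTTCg
Rps27l: cctctccactcctccccgccgcctctatcc
Rpl3l: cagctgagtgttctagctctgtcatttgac
A promoter entry was found for 60 of the 82 members. A TOP run began at the annotated start in 13 of them (21.7%), against 3.01% of 27025 genes, and within 10 bases of it in 38 (63.3%), against 34.4%. Within 250 bases before and 50 after the start, on either strand, CCGGAA occurred in 33 members (55.0%), against 16.7% of all genes. AAGATGGC occurred in 5 members (8.33%) and 3.19% of all genes, CACGTG in 6 members and 8.09% of all genes, and TATAAA in 6 members and 15.7% of all genes. These matches are a description of the windows.

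Ribosomal protein transcripts made up 2.31% ± 0.195 of all TPM in Control (SD, n = 5) and 3.02% ± 0.162 in LLC (SD, n = 3). Their summed level was 23845, 26287, 21969, 21739 and 21901 TPM in the 5 Control mice, and 26953, 21133, 21681, 20917 and 22374 TPM in the 5 Control + rFibcd1 mice. In LLC it was 29761, 28897 and 32029 TPM, and in LLC + rFibcd1 24607, 28555, 29235 and 24257 TPM. Every LLC mouse lay above every tumor-free mouse, and the LLC + rFibcd1 mice divided, with replicates 2 and 3 near LLC and replicates 1 and 4 within the range of the tumor-free mice. The mean sum was 1.31 times that of Control in LLC and 1.15 times in LLC + rFibcd1.

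**Figure D1:**
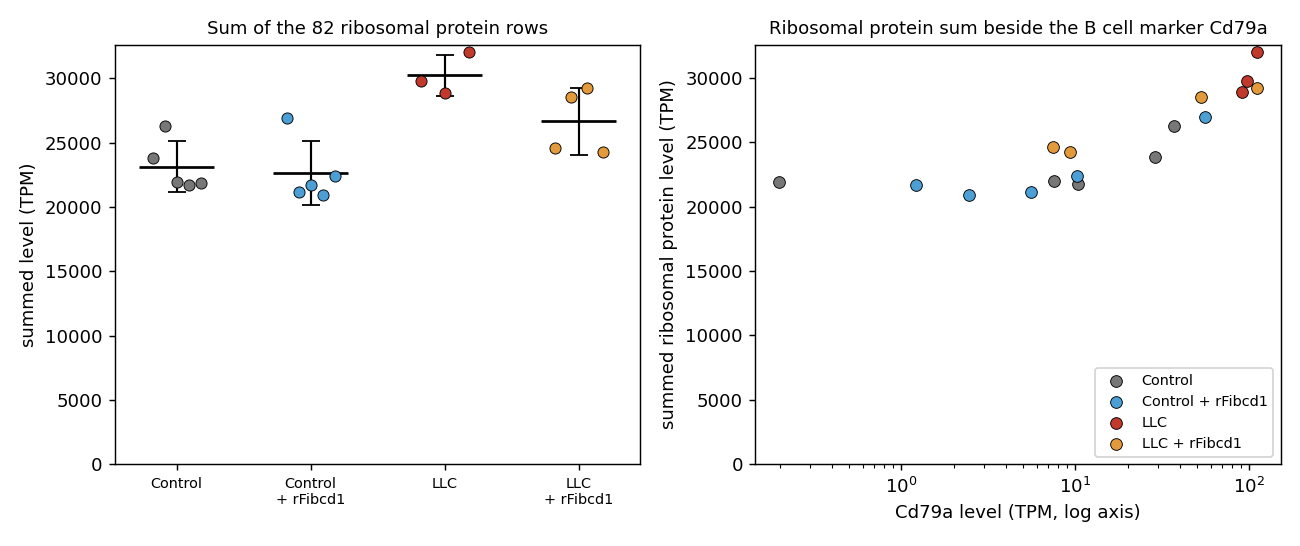
Summed TPM of the 82 ribosomal protein rows in each mouse by group (left; points are mice, bars the mean ± SD) and the same sums against the TPM of the B cell marker Cd79a on a log axis (right). The 3 LLC mice sit between 28897 and 32029 TPM, above all 10 tumor-free mice, and carry 90.6 to 110 TPM of Cd79a.

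Recovered depth was alike in all libraries, at 50700000 to 54500000 reads, and the muscle identity of the tissue was plain, with 47851 to 62993 TPM summed over 7 myofiber genes. Mitochondrially encoded transcripts took 47.1% ± 1.09 of TPM in Control (SD, n = 5) and 42.9% ± 1.53 in LLC (SD, n = 3), which raises the TPM of the remaining genes. The median gene shifted by 0.16 (log2) between Control and LLC in the deposited values. Median-ratio scaling brought this shift to 0.01, quantile normalization to -0.10, and removal of mitochondrially encoded genes to 0.08. Of all genes called, 83.2% were higher in the deposited values, against 52.7%, 32.2% and 64.2% under these scalings in turn. Changes of ribosomal protein genes are therefore also given relative to the median gene. As a share of TPM that is not mitochondrially encoded, the members held 4.37% ± 0.29 in Control (SD, n = 5) and 5.29% ± 0.142 in LLC (SD, n = 3).

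From Control to LLC, nearly the whole family rose. At an adjusted p under 0.05 (limma, Benjamini-Hochberg over all 13305 genes), 75 of 78 members were higher, against 29.7% of all genes, and 1 was lower, against 6.02% of all genes. The median change of the members was 0.41 (log2), against 0.16 for all genes, and 76 of 78 lay above the median gene. Large-subunit members had a median of 0.39 (45 of 47 higher) and small-subunit members of 0.43 (30 of 31 higher). The 2 members that were not called, Rps2 and Rpl36 (the latter named after its values were seen), had changes of 0.10 ± 0.05 (SE, adjusted p = 0.149) and 0.17 ± 0.07 (SE, adjusted p = 0.0711). At an unadjusted p under 0.05 there were 77 members, against 48.3% of all genes. In 73 members every LLC mouse lay above every Control mouse, against 33.6% of all genes, and in 1 every LLC mouse lay below, against 6.67% of all genes. Median-ratio scaling left 59 members higher and 1 lower, beside 2078 and 1863 of all genes. Quantile normalization left 68 and 1, beside 1510 and 3175 of all genes.

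The count depended on 1 library. Without LLC replicate 3, which had the highest sum, 0 members passed, the smallest adjusted p was 0.0569, and 74 had an unadjusted p under 0.05. In the same fit 24 of all 13305 genes passed and 4508 had an unadjusted p under 0.05. In the other 16 fits that left out a mouse, 70 to 76 members were higher and 1 was lower.

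Markers of several immune cell types were also higher in LLC than in Control. Cd79a, a B cell receptor chain, stood at 28.7, 36.8, 7.51, 10.4 and 0.199 TPM in Control, at 97.6, 90.6 and 110 TPM in LLC, and at 7.47, 52.6, 110 and 9.39 TPM in LLC + rFibcd1. All 6 B cell genes examined were higher in LLC than in Control, and their sum ranged from 2.39 to 92.8 TPM in Control, 3.33 to 133 in Control + rFibcd1, 212 to 267 in LLC and 17.5 to 263 in LLC + rFibcd1. No defining B cell gene was at 0 throughout a group. All 6 T cell genes and all 5 neutrophil genes were also higher in LLC, with sums of 23.9 to 40.8 and 44.9 to 106 TPM, against 1.52 to 14.8 and 1.84 to 14.2 in Control. In LLC + rFibcd1 these sums were 2.19 to 39.5 and 54.9 to 206 TPM. Between LLC + rFibcd1 and LLC the neutrophil genes had a median change of 0.20 (log2), where the members had -0.20. Of 6 macrophage genes 3 were higher in LLC, and their sum was 254 to 548 TPM in Control and 861 to 968 TPM in LLC. Of 4 plasma cell genes 2 were higher, with sums of 44.9 to 325 and 376 to 547 TPM. Of 4 fibroblast genes 0 passed (0 at an unadjusted p under 0.05), although their sums, 547 to 800 and 857 to 896 TPM, did not overlap. Of 4 adipocyte genes 0 passed (2 at an unadjusted p under 0.05), with sums of 584 to 1696 and 1027 to 3789 TPM. Of 3 mesothelial genes 0 passed (0 at an unadjusted p under 0.05), with overlapping sums of 42.7 to 111 and 72.3 to 129 TPM, and of 4 endothelial genes 1 was higher, Pecam1, with overlapping sums of 134 to 161 and 152 to 174 TPM. The part of these cells in the members' values was not tested. A B cell score, the mean log2 level of 4 B cell genes, was 5.42 to 5.76 in LLC and 0.526 to 4.29 in Control. Because these ranges do not overlap, a fit with this score cannot separate B cells from the tumor. With the mean log2 level of 4 B cell genes as a covariate, 0 members passed in LLC against Control and 59 had an unadjusted p under 0.05, beside 9 and 2167 of all 13305 genes. Their median change was 0.17, against 0.06 for all genes. In that fit Rpl3 was at 0.37 and Rpl3l at -0.13. Within Control, replicates 1 and 2 had the most Cd79a and the highest ribosomal protein sums. So did replicate 1 within Control + rFibcd1. The same mice had the most of the adipocyte marker Adipoq in their groups. It was at 175 and 145 TPM in Control replicates 1 and 2, against 26.4 to 50.1 TPM in the others. In Control + rFibcd1 replicate 1 it was at 192 TPM, against 34.0 to 49.6 TPM. Which cell type the sums follow was not tested. In LLC + rFibcd1 replicates 1 and 4, whose Cd79a was within the Control range, the sums were above those of the 3 Control mice with the least Cd79a. In bulk tissue, more cells of a type and more RNA per cell cannot be told apart.

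**Figure D2:**
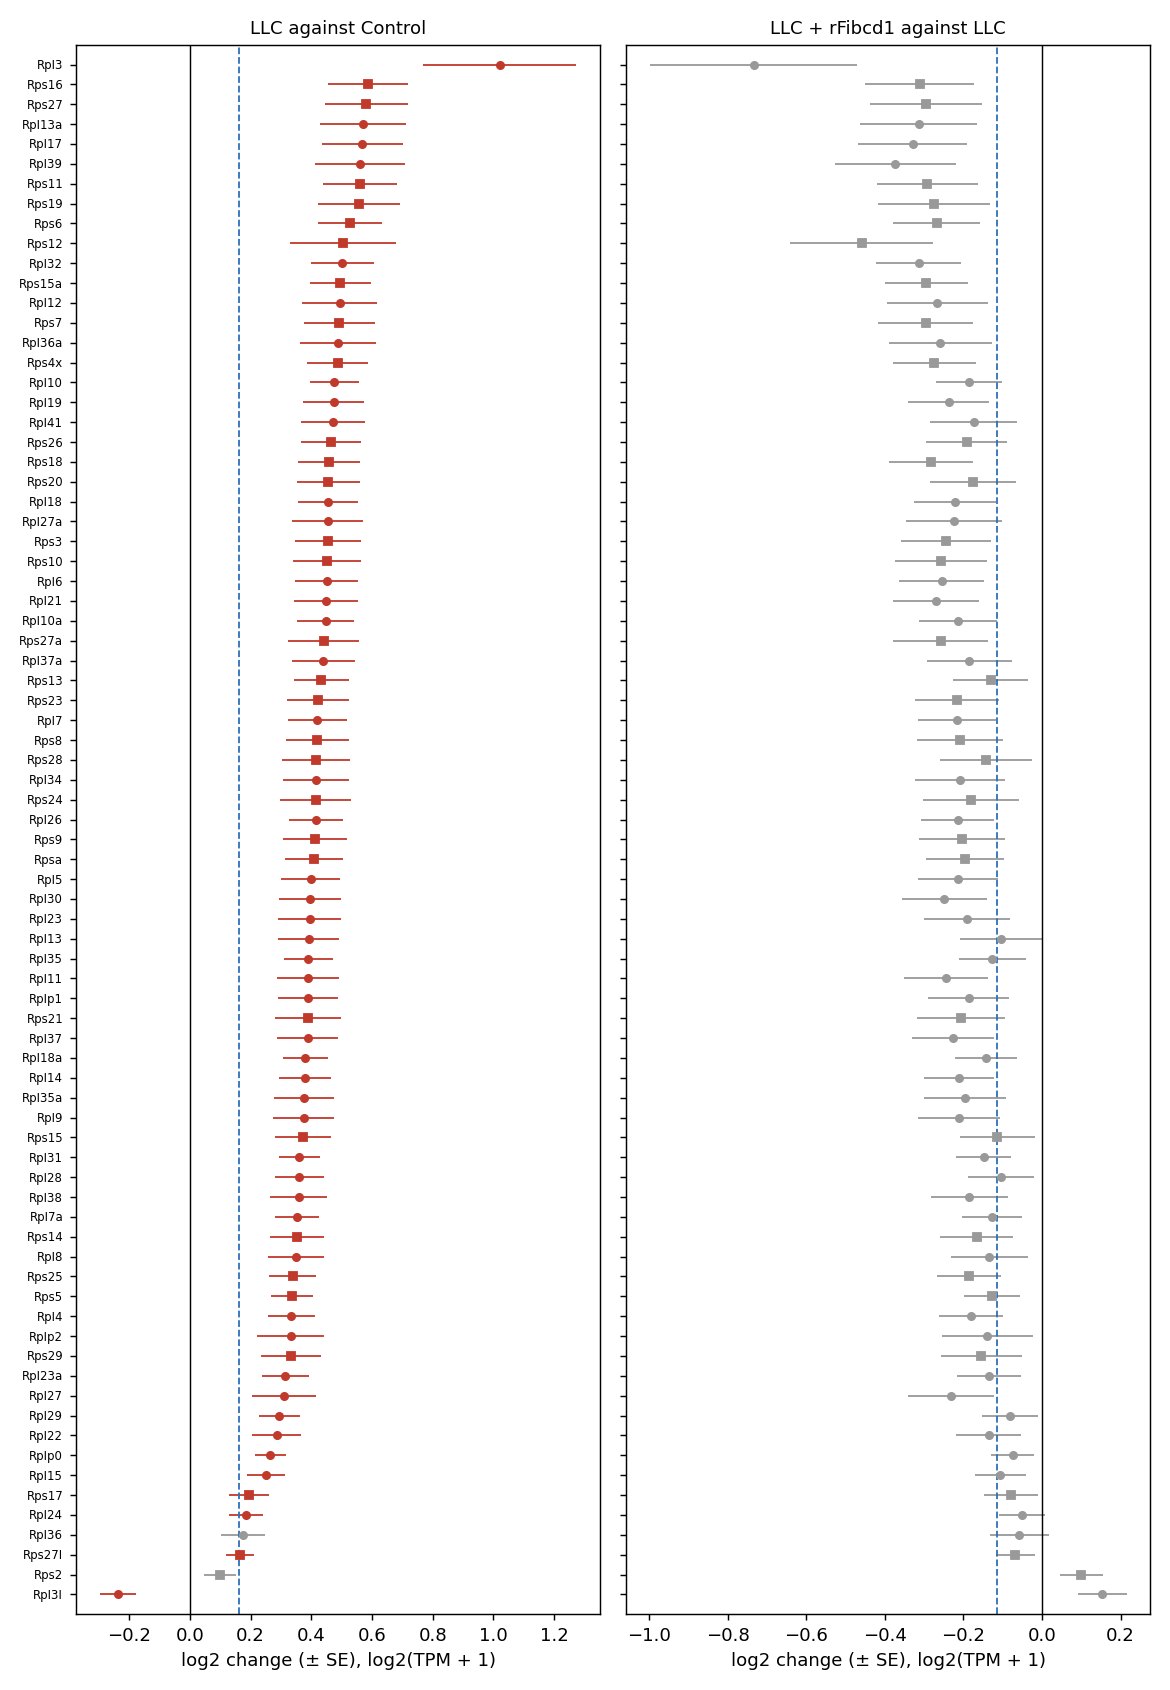
Log2 change (± SE, on log2(TPM + 1)) of the 78 members tested, ordered by LLC against Control (left) and shown in the same order for LLC + rFibcd1 against LLC (right). Circles are large-subunit and squares small-subunit genes, red marks an adjusted p under 0.05, and the dashed line is the median of all genes (0.16 left, -0.11 right). Rpl3 and Rpl3l are at opposite ends on both sides.

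Rpl3 showed the largest rise of the family. It was at 81.5, 101, 67.9, 69.9 and 59.1 TPM in Control and at 152, 132 and 175 TPM in LLC. The groups did not overlap, and the lowest LLC mouse exceeded the highest Control mouse. The change was 1.02 ± 0.25 (log2, SE, adjusted p = 0.0128), and 722 of 13305 genes rose more. In Control + rFibcd1 Rpl3 was at 108, 72.9, 48.1, 50.7 and 70.7 TPM, and in LLC + rFibcd1 at 73.3, 121, 113 and 69.1 TPM. Here too replicates 2 and 3 of LLC + rFibcd1 were the high ones.

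Rpl3l was the 1 member called lower. It was at 382, 393, 449, 413 and 445 TPM in Control and at 347, 376 and 335 TPM in LLC. All 3 LLC mice lay below all 5 Control mice, with a change of -0.24 ± 0.06 (log2, SE, adjusted p = 0.0128). Relative to the median gene it was -0.40, and it was negative under every scaling tried. In Control + rFibcd1 it was at 415, 407, 455, 440 and 425 TPM, and in LLC + rFibcd1 at 397, 374, 384 and 415 TPM, where the lowest mouse overlapped the highest of LLC. Of 7 myofiber genes, Myh1, Mb, Tnnt3 and Ckm were also lower in LLC, by 0.64, 0.30, 0.29 and 0.27 on the log2 scale, and the sum over the 7 fell from a range of 56951 to 61651 TPM in Control to 47851 to 51513 TPM in LLC. The part of the shift in myofiber genes in the changes of Rpl3 and Rpl3l was not tested.

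The ratio of Rpl3l to Rpl3 was lowest in the LLC mice, a difference whose p did not pass after adjustment. It was 4.69, 3.91, 6.62, 5.91 and 7.53 in Control, 2.28, 2.84 and 1.91 in LLC, and 5.41, 3.10, 3.41 and 6.00 in LLC + rFibcd1. All 3 LLC mice lay below every other mouse. The difference of the mean log2 ratio, with 1 TPM added to each level, was -1.26 ± 0.24 between LLC and Control (SE; two-sided exact permutation test, p = 0.0179, the smallest that its 56 splits allow). Adjusted over the 4 pairwise comparisons of groups, p was 0.0714. Without Control replicate 1 the difference was -1.32 and p 0.0571. Between LLC + rFibcd1 and LLC it was 0.89 ± 0.29 (SE; exact permutation p = 0.0571, adjusted 0.114). Control + rFibcd1 differed from Control by 0.19 ± 0.29 (SE; exact permutation p = 0.516) and LLC + rFibcd1 from Control by -0.37 ± 0.29 (SE; exact permutation p = 0.238).

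The absolute ratio depends on the length by which reads are divided. Deposited TPM used the summed exon length of a gene, 3175 bases for Rpl3 and 1643 for Rpl3l, whereas the main mRNAs are 1351 and 1375 bases long. Divided by the mRNA lengths, Rpl3l exceeded Rpl3 by a mean of 2.91 ± 0.74 times in Control (SD, n = 5), and the ratio was 1.19 ± 0.239 in LLC (SD, n = 3). The change between groups is the same on both scales.

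**Figure D3:**
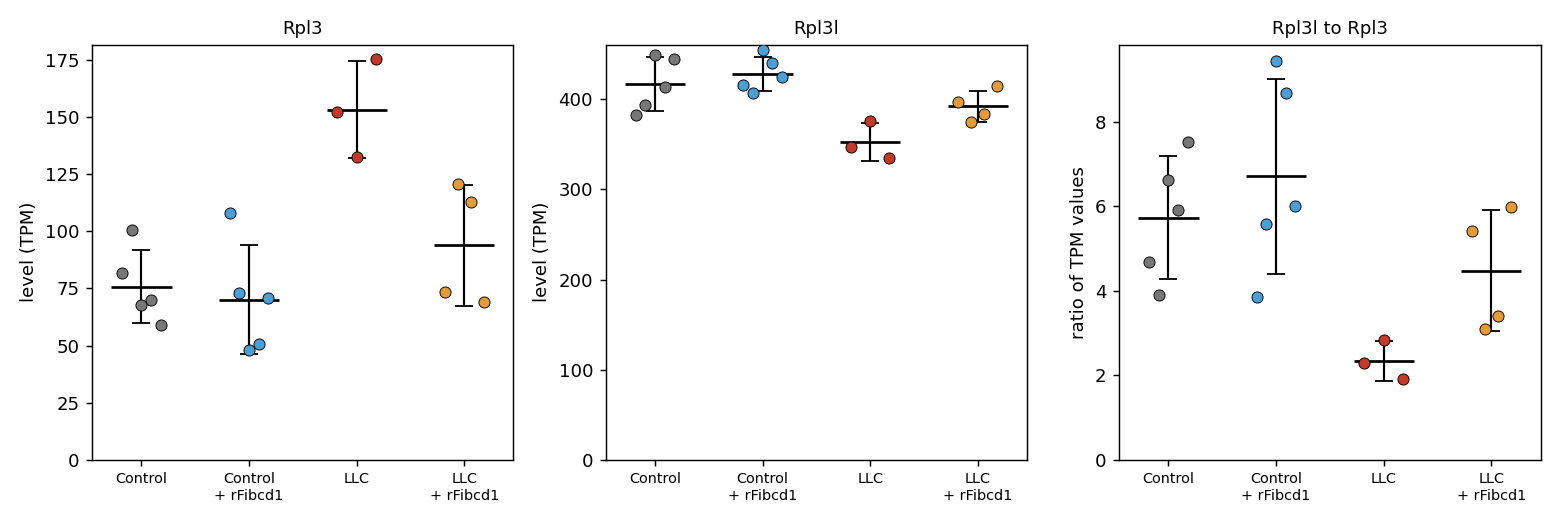
TPM of Rpl3 (left) and of its muscle paralog Rpl3l (middle), and their ratio (right), in each mouse by group, with the mean ± SD. In LLC Rpl3 sits between 132 and 175 TPM and Rpl3l between 335 and 376 TPM, so the ratio is at most 2.84, below all other mice.

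The other paralogs were less abundant than their partners. Rps27, a zinc finger protein of the small subunit, was at 286, 332, 267, 251 and 255 TPM in Control and at 390, 399 and 456 TPM in LLC, without overlap, a change of 0.58 ± 0.14 (log2, SE, adjusted p = 0.0114). Rps27l, a paralog known as a p53 target, was at 89.2, 93.8, 84.0, 84.2 and 84.7 TPM in Control and 94.8, 98.4 and 100 TPM in LLC, 0.17 ± 0.05 higher (log2, SE, adjusted p = 0.0181). The Rps27l groups lay close without overlap. Its change relative to the median gene was 0.0048, and median-ratio scaling turned it to -0.018. The Rps27l call was kept under 5 of 11 other settings (limma adjusted p up to 0.858). Rps27 levels exclude the reads counted for Rps27rt, a copy with an identical coding sequence at a mean of 81.6 TPM. Rpl39, at the exit tunnel, rose by 0.56 ± 0.15 (log2, SE, adjusted p = 0.0145), from 101 to 142 TPM in Control to 156 to 187 TPM in LLC. Rpl39l and Rpl10l, paralogs known from the male germ line, did not pass the filter. Rpl10l was listed at 0 in 16 mice and Rpl39l at or below 0.249 TPM in 16, while Control replicate 3 had 1.02 and 2.56 TPM of them. Rps4l, annotated as a pseudogene, was listed at 0 in all 17 mice, where 3 reads would give 0.119 to 0.133 TPM, a limit that covers counting error only. Its X-linked partner Rps4x rose by 0.49 ± 0.10 (log2, SE, adjusted p = 0.00969), from 316 to 399 TPM in Control to 462 to 525 TPM in LLC. Rpl6l, the fourth member that failed the filter and named after its values were seen, was at or below 0.225 TPM.

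Next to Rpl3, the largest rises belonged to structural proteins of both subunits. Rps16, in the head of the small subunit, rose from 211 to 278 TPM in Control to 321 to 391 TPM in LLC, by 0.59 ± 0.13 (log2, SE, adjusted p = 0.0111). Rpl13a, which is also known to be released from the ribosome in inflammation, rose from 406 to 553 TPM to 630 to 727 TPM, by 0.57 ± 0.14 (SE, adjusted p = 0.0128). Rpl17, at the rim of the exit tunnel, rose from 423 to 568 TPM to 658 to 750 TPM, by 0.57 ± 0.13 (SE, adjusted p = 0.0113). In all 3 the groups did not overlap.

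Proteins with a known function beyond structure moved within the span of the family. Rps6, which S6 kinase phosphorylates downstream of mTOR, was at 280, 316, 260, 257 and 257 TPM in Control and 386, 375 and 423 TPM in LLC, 0.53 ± 0.11 higher (log2, SE, adjusted p = 0.00942). Its groups were well apart. Rpl5 and Rpl11, which with 5S rRNA bind Mdm2 and so link ribosome assembly to p53, rose by 0.40 ± 0.10 and 0.39 ± 0.10 (SE, adjusted p = 0.0123 and 0.0143). Rps27a, made as a fusion with ubiquitin, rose by 0.44 ± 0.12 (SE, adjusted p = 0.0144), and Rpsa, which also serves as a laminin receptor, by 0.41 ± 0.09 (SE, adjusted p = 0.0113).

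The stalk proteins, which recruit elongation factors to the large subunit, rose by 0.26 to 0.39 on the log2 scale. Rplp0 was at 686, 726, 678, 665 and 661 TPM in Control and 804, 812 and 846 TPM in LLC, without overlap, 0.26 ± 0.05 higher (log2, SE, adjusted p = 0.00926). Rplp1 had the highest mean level of all members, 1414 TPM, and rose by 0.39 ± 0.10 (SE, adjusted p = 0.013). Rplp2 rose by 0.33 ± 0.11 (SE, adjusted p = 0.0322), and its groups overlapped, with 176 to 242 TPM in Control and 232 to 264 TPM in LLC. This call was lost without Control replicate 3, 4 or 5 or LLC replicate 1 or 3 (adjusted p up to 0.123), and under 6 of 11 other settings.

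Mean levels over 17 mice spread from 15.3 to 1414 TPM among the 78 members, with a median of 273 TPM. After Rplp1, Rps29 (754 TPM) and Rps15 (727 TPM) were the highest. They rose by 0.33 ± 0.10 and 0.37 ± 0.09 in LLC (log2, SE, limma adjusted p = 0.021 and 0.0128). The Rps29 call was kept under 6 of 11 other settings and the Rps15 call under 8. Rpl27 (15.3 TPM), Rpl10 (41.0 TPM) and Rps15a (48.4 TPM) were the lowest, and they rose by 0.31 ± 0.10, 0.48 ± 0.08 and 0.50 ± 0.10 (log2, SE, adjusted p = 0.034, 0.00734 and 0.00964). The call of Rpl27 was lost without Control replicate 3, 4 or 5 or LLC replicate 2 or 3 (adjusted p up to 0.151), and under 6 of 11 other settings. Rpl10-ps3 and Rpl27-ps3, processed copies with an identical coding sequence, were listed at 763 and 472 TPM, and reads of identical sequence cannot be assigned to the gene or its copy with certainty. Rps12, also named after its values were seen, shared 86.5% of its coding sequence, at full identity, with Rps12-ps3 (483 TPM), beside 367 TPM of its own. For Rps15a the exon length was 6270 bases against an mRNA of 640, and division by the latter gives 474 TPM. With all near-identical copies added, an alternative chosen after seeing the data, 75 members were higher and 1 lower in LLC, as without them.

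**Figure D4:**
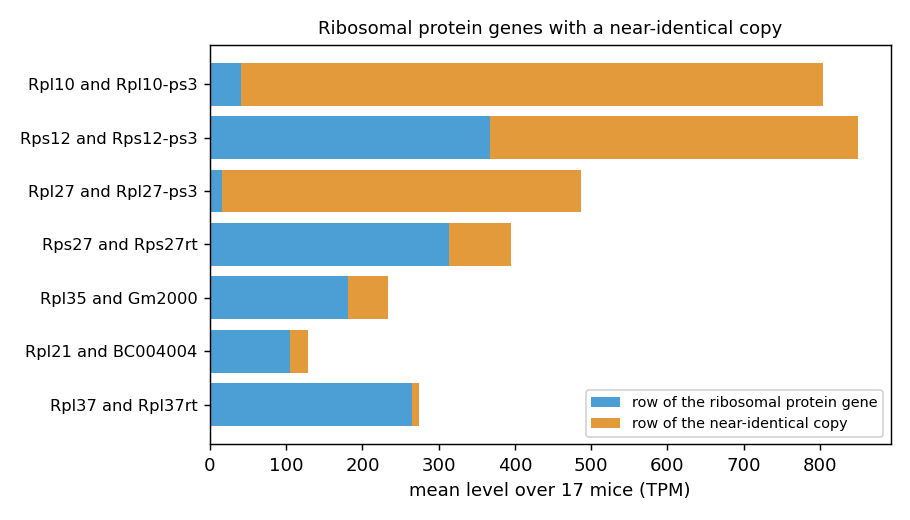
Mean TPM over 17 mice of 7 ribosomal protein genes (blue) and of a row with a near-identical coding sequence (orange), stacked. For Rpl10 (41.0 TPM), Rpl27 (15.3 TPM) and Rps12 (367 TPM) the copy holds most of the sum.

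Most members of each functional group within the ribosome rose, where 29.7% of all genes were called higher. Of 8 proteins at the exit tunnel and its rim, 8 were higher in LLC, with a median change of 0.40 (log2). Of 6 at the mRNA entry and exit of the small subunit, 5 were higher with a median of 0.41, and the sixth was Rps2. The 13 members with a TOP run at the annotated start had a median change of 0.39 with 13 higher, and the 45 tested members with another start had 0.42 with 43 higher and 1 lower, Rpl3l. Of 7 ribosomal proteins whose symbols fall outside the rule, 4 were higher, with a median of 0.29. Rps3a1 rose by 0.43 ± 0.10 and Gnb2l1, the scaffold also called RACK1, by 0.37 ± 0.09 (SE, adjusted p = 0.0111 and 0.0113). Fau, made as a fusion with a ubiquitin-like protein, had a change of 0.16 ± 0.11 (SE, adjusted p = 0.273).

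Genes that serve the ribosome were closer to the median gene, and their counts stand against 29.7% of all genes called higher and 6.02% lower. Of 20 translation factors and other transcripts known to carry TOP motifs, 13 were higher and 0 lower (15 at an unadjusted p under 0.05), with a median of 0.22. Eef1a1, which brings tRNA to the ribosome and which muscle fibers largely replace by Eef1a2, and Pabpc1, the poly(A)-binding protein, stood out with 1.01 ± 0.26 and 0.84 ± 0.19 (SE, adjusted p = 0.0135 and 0.0111). Of 26 ribosome biogenesis genes 10 were higher, with a median of 0.15, among them Fbl, the rRNA methyltransferase fibrillarin (0.43 ± 0.12, SE, adjusted p = 0.0174). Of 20 tested genes that control ribosome synthesis, 4 were higher and 1 lower, with a median of 0.11. Myc, which drives ribosome synthesis, rose by 0.92 ± 0.26 (SE, adjusted p = 0.0186), while Mtor and Larp1 had changes of 0.08 ± 0.07 and 0.12 ± 0.06 (SE, adjusted p = 0.367 and 0.0972).

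**Figure D5:**
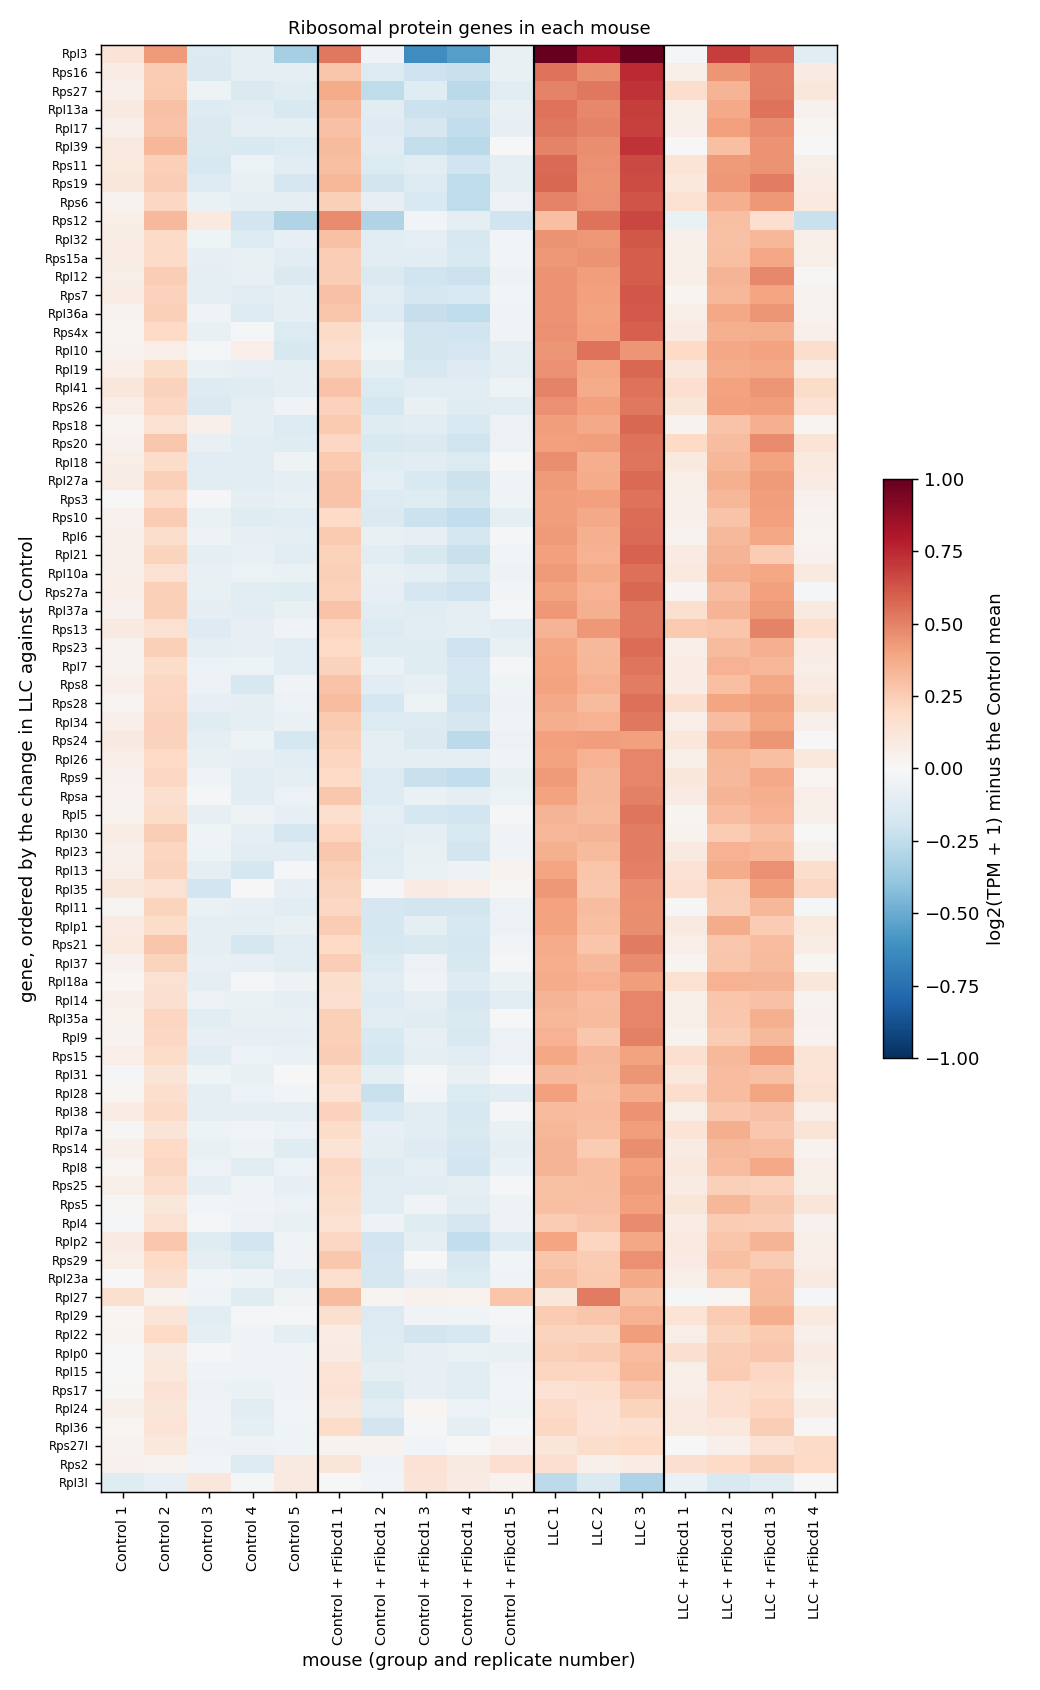
Log2(TPM + 1) of each tested member in each mouse, minus the mean of the 5 Control mice, with genes ordered by the change in LLC against Control and black lines between groups. The 3 LLC mice are red in nearly all genes, as are Control replicate 2, Control + rFibcd1 replicate 1 and LLC + rFibcd1 replicates 2 and 3 in a paler tone, and Rpl3l at the bottom is blue in LLC.

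Between LLC + rFibcd1 and LLC, no ribosomal protein gene passed the test. The count was 0 of 78 members at an adjusted p under 0.05 (limma), against 0.113% of all genes, with 28 at an unadjusted p under 0.05, against 22.7% of all genes. Dunn's test with a fold cutoff also gave 0. The values of 76 members were negative, with a median of -0.20 (log2) against -0.11 for all genes, and in 22 members all LLC + rFibcd1 mice lay below all LLC mice, against 9.3% of all genes. The smallest p belonged to Rpl32, Rps15a and Rpl3. Rpl32, a large-subunit protein, was at 404, 400 and 456 TPM in LLC and 307, 363, 373 and 310 TPM in LLC + rFibcd1, without overlap, a difference of -0.31 ± 0.11 (log2, SE, adjusted p = 0.185). Rps15a was at 59.4, 60.1 and 66.8 TPM in LLC and 45.6, 54.1, 57.5 and 45.5 TPM in LLC + rFibcd1, a difference of -0.29 ± 0.11 (SE, adjusted p = 0.192). In both genes replicates 1 and 4 were the low mice. Rpl3 differed by -0.73 ± 0.26 (SE, adjusted p = 0.192) and Rpl3l by 0.15 ± 0.06 (SE, adjusted p = 0.205). None of these differences passed the adjusted threshold. Over all 78 members, the differences ran from -0.73 (Rpl3) to 0.15 (Rpl3l), and Rps2 (0.10 ± 0.06, SE, adjusted p = 0.261) was the other positive one. The 6 B cell genes had a median of -1.79 in this comparison, with 0 past the adjusted threshold and 2 at an unadjusted p under 0.05. The 6 T cell genes had a median of -1.26, with 0 and 5. Plasma cell, adipocyte and macrophage genes had medians of -1.25, -1.03 and -0.58, whereas neutrophil and endothelial genes had 0.20 and 0.19. Adding the B cell score to the fit took the median of the members relative to all genes from -0.09 to -0.010. The part of any of these cells was not tested.

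Between LLC + rFibcd1 and Control, few members passed the test. At an adjusted p under 0.05 (limma), 3 of 78 members were higher, against 2.07% of all genes, and 0 were lower, against 1.01%. At an unadjusted p under 0.05 there were 45, against 19.9% of all genes, and in 6 every LLC + rFibcd1 mouse lay above every Control mouse, against 5.96% of all genes. The median change was 0.20 (log2), against 0.06 for all genes. Rps2, at the mRNA entry of the small subunit, was at 680, 676, 647, 602 and 703 TPM in Control and 737, 758, 780 and 761 TPM in LLC + rFibcd1, 0.20 ± 0.05 higher (SE, adjusted p = 0.0399). These groups did not overlap, whereas in LLC Rps2 was at 742, 685 and 698 TPM, overlapping both. Rpl10, which completes the large subunit, was 0.29 ± 0.07 higher (SE, adjusted p = 0.0452) and Rplp0 0.19 ± 0.05 higher (SE, adjusted p = 0.0433). All 5 neutrophil genes were also called higher in this comparison, with a median of 2.11 (log2), and 2 of 7 myofiber genes were called lower. B cell, T cell, macrophage and plasma cell genes had 0 calls. Of 4 endothelial genes, Tek and Pecam1 were higher, by 0.42 ± 0.06 and 0.41 ± 0.06 (SE, limma adjusted p = 0.00333 for both). The summed level of the 4 was 171 to 194 TPM, above the 134 to 161 TPM of Control. The part of these cells in the 3 calls was not tested. The 3 calls were not stable. Fits that left out a mouse gave 0 to 12 members. The count was 0 without Control replicate 1, 3 or 4 or LLC + rFibcd1 replicate 1, 2 or 3, 10 without Control replicate 2 and 12 without Control + rFibcd1 replicate 1, where 314 and 427 of all genes were higher, against 276 with all mice. Leaving out Control replicate 5, Control + rFibcd1 replicate 5 or any LLC mouse gave 1, and the other fits 2.

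In tumor-free mice, rFibcd1 gave no difference in ribosomal protein transcripts that passed the test. Of 78 members 0 were called (limma), against 0% of all genes, and 0 had an unadjusted p under 0.05, against 4.39% of all genes. The median was -0.04 (log2), against -0.06 for all genes. The smallest p belonged to Rps2, Rpl27 and Rpl22, the last known to be dispensable for the survival of mice. Their changes were 0.10 ± 0.05, 0.14 ± 0.09 and -0.09 ± 0.07 (SE, limma adjusted p = 0.927 for each). Rpl3 was at -0.15 ± 0.22 and Rpl3l at 0.04 ± 0.05 (SE, adjusted p = 0.927 for both). The interaction term, which compares the effect of rFibcd1 in tumor-bearing and tumor-free mice, gave 0 of 78 members, against 0% of all genes, and 1 at an unadjusted p under 0.05, against 8.58% of all genes, with a median of -0.16 (log2), against -0.06 for all genes. In that test Rpl27 was at -0.37 ± 0.14 (SE, adjusted p = 0.425), Rpl32 at -0.29 ± 0.14 (SE, adjusted p = 0.591) and Rps15a at -0.26 ± 0.14 (SE, adjusted p = 0.629). Rpl3 was at -0.59 ± 0.34 (SE, adjusted p = 0.659) and Rpl3l at 0.11 ± 0.08 (SE, adjusted p = 0.677). The comparisons share their control mice, so their medians are not independent.

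The large subunit held more TPM than the small one in every mouse. The mean ratio of both sums was 1.42 ± 0.0141 (SD) in Control, against 1.39 ± 0.00903 in LLC. With rFibcd1 it was 1.42 ± 0.0151 without and 1.40 ± 0.0123 with a tumor. Every LLC value lay below every Control value, and no test was run on this ratio.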

How the data were processed

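RNA from a part of each diaphragm, freed of tendon, was sequenced by the authors, who trimmed the reads and aligned them to the mouse build GRCm38 (mm10) with CLC Genomics Workbench. The labels name a stranded mRNA kit and the paper's methods another TruSeq kit. Whether counting used strand, and the annotation release, are not given in the sources used here. The deposited values are TPM per gene, in which the authors divided reads by gene length and scaled each library to a fixed sum. Depth was recovered from whole-read steps in low values: 81.9% to 84.8% fell within 0.02 of a whole read with exon lengths from GENCODE vM21. For genes with longer exon unions than transcripts, 67.7% to 71.9% were whole with the union length and 8.63% to 11.5% with the longest transcript. Such depths entered no test.

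Groups came from the sample titles, 1 mouse per replicate, and 0 columns lacked a sample. Levels were log2-transformed after adding 1 TPM, which understates the change of low genes, with the filter on low values stated above. The 4 groups entered 1 linear model in limma 3.58.1 (R 4.3.3) with an expression trend and two-sided moderated tests, and p-values were adjusted over all 13305 genes. The study's Kruskal-Wallis and Dunn tests, at p under 0.05 and an absolute log2 change above 0.585, served as an alternative. The Rpl3l to Rpl3 ratio was tested by exact permutation. Near-identical copies were found with blastn 2.17.0, at 95% identity over 80% of the coding sequence. Tests were checked on simulated data.

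Genes named in the text were the paralog pairs, the stalk proteins, Rpsa, Rps6, Rpl5, Rpl11, Rps27a, the 3 highest and 3 lowest by mean level, and per comparison the 6 largest rises and falls past the threshold or, with none, the 3 smallest p. Members, lists and tests were chosen with earlier results of these data known. Alternatives were other scalings, another pseudocount, no filter, fits of 2 groups, a replicate block, a B cell covariate, added copies and leaving out each mouse.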

Additional observations from a re-analysis of the deposited data

Results flagged for a closer look

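Values are given here where the highest or lowest mouse of a group stood apart from the rest by Dixon's criterion at the 95% level. Of 88 groups of values examined, 15 did so, and chance flags about 1 in 20.

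Of these, 12 belong to Control + rFibcd1 replicate 1. Its summed ribosomal protein level was 26953 TPM, with the next mouse of the group at 22374 TPM. Its levels were 357 TPM for Rps27, 725 for Rplp0, 1553 for Rplp1, 559 for Rpsa, 133 for Rpl11, 787 for Rps15, 51.9 for Rps15a, 282 for Rps16, 566 for Rpl13a, 570 for Rpl17 and 362 for Rpl32, each the highest of the group. The same mouse stood above the other 4 for markers of several cell types. It had 55.4 TPM of the B cell marker Cd79a, where the others had 1.21 to 10.2 TPM, and 1459 TPM of Lyz2 and 18.1 TPM of Adgre1, macrophage markers, where the others had 151 to 353 and 2.72 to 5.62 TPM. The adipocyte marker Adipoq was at 192 TPM, against 34.0 to 49.6 TPM. The part of these cells in its values was not tested.

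Rpl10l was at 1.02 TPM (24.9 estimated reads) in Control replicate 3 and listed at 0 in the other 4 Control mice. Rpl39l was at 2.56 TPM (50.8 estimated reads) in the same mouse and at 0.143 TPM or less in the others. Of 10 spermatid genes, a list chosen after these values were seen, Prm1, Prm2, Tnp1, Tnp2, Akap4 and Smcp were at 0 in every Control mouse, and the sum over the list, nearly all of it Odf2, was 3.83 to 4.60 TPM in Control.

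Rpl27 was at 17.6 TPM in LLC + rFibcd1 replicate 3, with the next mouse of that group at 14.2 TPM. Rpl27-ps3, with the same coding sequence, holds 472 TPM on average.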

How the results depend on the processing

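In LLC against Control, the 76 calls became 0 with a replicate block, 0 with a B cell covariate and 2 by Dunn's test with the fold cutoff (76 at its p alone). Fits without 1 mouse gave 0 to 77. Other scalings, pseudocount, filter, a fit of 2 groups and added copies gave 60 to 77. The sample titles do not say whether replicate numbers pair the mice. The 15 same-number correlations of deviations ran from -0.33 to 0.49 with 4 over 0.1. Pairs of different number reached 0.75, so these correlations cannot settle it. Under the replicate block 5 of all genes were called in LLC against Control.

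In LLC + rFibcd1 against Control, the 3 calls became 0 after quantile normalization, without mitochondrially encoded genes, without the filter, with only the 2 groups, with a replicate block and by Dunn's test, and 5 with the B cell covariate. Fits without 1 mouse gave 0 to 12. The other 3 comparisons stayed at 0 calls under all alternatives run.

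The median member change relative to all genes in LLC against Control (0.25) became 0.40 after quantile normalization, 0.34 without the filter and 0.11 with the B cell covariate, and 0.23 to 0.29 without 1 mouse. In LLC + rFibcd1 against LLC (-0.09) it became -0.22 after quantile normalization and -0.010 with the B cell covariate, and -0.13 to -0.06 without 1 mouse. The ratio difference in LLC against Control was -1.41 to -1.12 without 1 mouse, and its unadjusted p was no longer under 0.05 without Control replicate 1 (-1.32). The p adjusted over 4 comparisons was 0.0714 with all mice. The cause of these shifts was not tested.

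Reversed values were -0.018 for Rps27l and -0.086 for Rps2 in LLC against Control after median-ratio scaling, -0.0060 for Rps2 after quantile normalization and -0.011 without mitochondrially encoded genes. Rpl27 in Control + rFibcd1 against Control was -0.054 with rows named as its pseudogenes added, and -0.054 with near-identical copies added. Of 700 settings run for 25 named members in LLC against Control, 582 kept direction and call and 114 lost the call. Depth was alike across mice, and levels of single members are limited by reads shared with copies and by the length used.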

Other observations

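Eef1a1 and Eef1a2 form a pair like Rpl3 and Rpl3l, a general form and a form used in mature muscle fibers. Eef1a1 was at 690, 835, 595, 585 and 534 TPM in Control and 1311, 1107 and 1466 TPM in LLC, without overlap. Eef1a2, looked up after the Eef1a1 values were seen, was at 995, 962, 1072, 1036 and 992 TPM in Control and 901, 962 and 880 TPM in LLC, so the groups met at the margin, and its change was -0.15 ± 0.06 (log2, SE, limma adjusted p = 0.082). In LLC + rFibcd1 Eef1a1 was at 644, 1068, 965 and 616 TPM and Eef1a2 at 1145, 928, 1016 and 1085 TPM. As with Rpl3 and Rpl3l, replicates 1 and 4 had the least Eef1a1 and the most Eef1a2.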
